A study of Rattus norvegicus with 12 samples.

Results

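The series asked how transcripts of cultured rat hippocampal neurons responded when excitatory synaptic input was blocked, and the results here describe 10 antioxidant defence genes: Srxn1, Sesn2, Hmox1, Nqo1, Gclc, Gclm, Txnrd1, Prdx1, Txnip and Slc7a11. They were chosen by name, with earlier results of these data known. All are genes that synaptic activity is known to regulate or that belong to the same defence. Each was found through the RefSeq transcript that its array probe carries, and all 10 were among the 21243 genes or unnamed targets tested. Where a gene had several probes, the brightest gave its value.

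The neurons came from Wistar rat embryos at embryonic day 18 and had been in culture for 14 to 15 days. Blocked cultures received GYKI-52466 at 50 µM, an antagonist of AMPA-type glutamate receptors, together with MK-801 at 10 µM, an antagonist of NMDA-type glutamate receptors. There were 4 groups: cultures blocked for 26 h, their untreated counterparts at 26 h, cultures blocked for 9 h and their untreated counterparts at 9 h, each with 3 arrays from independent cultures. The cultures are mixed, so a lower level can mean fewer cells of a type or less RNA per cell, and these cannot be told apart.

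Neurons rely on linked thiol systems to remove peroxides. Peroxiredoxins such as Prdx1 reduce hydrogen peroxide, thioredoxin (kept reduced by thioredoxin reductase, Txnrd1) restores them, and sulfiredoxin (Srxn1) repairs peroxiredoxins that were overoxidised. Glutathione, built from cystine imported by Slc7a11 and joined by the ligase made of Gclc and Gclm, serves the other branch. Txnip binds and inhibits thioredoxin. Many of these genes are targets of the transcription factor NRF2, and synaptic NMDA receptor activity is known in rodent neurons to raise Srxn1 and Sesn2 through AP-1 and C/EBPβ and to hold down Txnip through FOXO factors.

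Promoter windows, from 250 bases before to 50 bases after the annotated start, were listed in RefSeq (GRCr8) for 8 of the 10 members. Hmox1 and Txnip had no entry. The windows of the 3 members that were lower at 26 h than at 9 h are printed, with that of Prdx1, which held the same motifs and did not pass the test over time. Capitals mark matches to the core of the antioxidant response element (TGACNNNGC, the site of NRF2) or of AP-1 (TGACTCA, the site of Fos and Jun dimers), read on both strands.
Srxn1, chr3:161064562-161064861, plus strand: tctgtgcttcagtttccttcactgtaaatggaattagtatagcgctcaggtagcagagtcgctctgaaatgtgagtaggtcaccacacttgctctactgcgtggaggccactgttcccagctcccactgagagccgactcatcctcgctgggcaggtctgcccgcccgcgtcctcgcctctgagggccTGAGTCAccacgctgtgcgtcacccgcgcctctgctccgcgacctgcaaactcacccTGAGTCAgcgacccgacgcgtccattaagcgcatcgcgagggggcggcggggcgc
Sesn2, chr5:150005206-150005505, minus strand: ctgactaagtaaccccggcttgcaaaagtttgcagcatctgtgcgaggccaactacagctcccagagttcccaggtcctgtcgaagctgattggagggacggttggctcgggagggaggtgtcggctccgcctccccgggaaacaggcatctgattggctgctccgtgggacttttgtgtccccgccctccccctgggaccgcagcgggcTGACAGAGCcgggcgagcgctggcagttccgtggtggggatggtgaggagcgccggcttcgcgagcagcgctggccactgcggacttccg
Txnrd1, chr7:22755855-22756154, minus strand: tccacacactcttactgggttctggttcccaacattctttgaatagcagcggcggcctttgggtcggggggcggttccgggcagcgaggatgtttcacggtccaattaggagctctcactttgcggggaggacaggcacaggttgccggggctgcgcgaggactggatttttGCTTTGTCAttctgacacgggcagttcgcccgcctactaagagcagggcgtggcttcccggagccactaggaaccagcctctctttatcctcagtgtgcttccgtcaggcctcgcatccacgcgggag
Prdx1, chr5:135383656-135383955, plus strand: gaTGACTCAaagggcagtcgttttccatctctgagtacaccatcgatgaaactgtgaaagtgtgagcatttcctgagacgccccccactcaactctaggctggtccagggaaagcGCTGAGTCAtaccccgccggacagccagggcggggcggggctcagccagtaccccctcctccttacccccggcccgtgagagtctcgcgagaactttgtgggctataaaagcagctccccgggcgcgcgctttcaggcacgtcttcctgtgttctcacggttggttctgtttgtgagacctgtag
The Srxn1 window held the AP-1 core at 62 and at 5 bases before the start site (counted to the first base of the match), and no antioxidant response element core. The Prdx1 window held the AP-1 core at 248 and 133 bases before the start, and the second match lies inside its single antioxidant response element core. Sesn2 and Txnrd1 each held 1 antioxidant response element core and no AP-1 core, and a second, upstream Txnrd1 window held neither. Gclm was the fourth member with the antioxidant response element core. Over all 33469 rat promoter windows of this length, 12.06% held that core and 4.63% held AP-1. The cores of the E-box (CACGTG, in 6.42% of windows), of the FOXO site (GTAAACA, in 3.78%) and of the cyclic AMP response element (TGACGTCA, in 1.83%) matched in none of the members' windows. These matches describe letters in a window and nothing about binding.

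Each value below is on a log2 scale, the processed spot signal relative to its array's 75th percentile. A value of 0 is the level of that percentile, and 1 unit is a doubling. Levels of different probes are not comparable with each other. Between 77.64% and 86.75% of spots lay well above background on each array, and arrays of a group correlated at 0.985 to 0.994 across features. All 8 neuronal markers were detected, with summed levels (in units of the array's 75th percentile) of 38.32 to 39.62 on blocked 26 h, 42.49 to 48.52 on untreated 26 h, 43.39 to 45.37 on blocked 9 h and 32.15 to 45.84 on untreated 9 h arrays. Astrocyte markers were present as well. Scanning took place on 2 days and used 6 slides. Blocked 26 h and untreated 9 h arrays shared 3 slides and day 1, while blocked 9 h and untreated 26 h arrays shared 3 slides and day 2. A blockade effect averaged over both times, and a time effect averaged over both treatments, are balanced over days. The effect at a single time compares arrays of different days, and the difference between the effects at the 2 times cannot be told apart from scan day.

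Averaged over both times, blockade moved none of the 10 members past the threshold of an adjusted p of 0.05 (limma, Benjamini-Hochberg over all 21243 features), in either direction, and 1 of them had an unadjusted p under 0.05. Over all features, 2.23% were called higher and 2.22% lower, and 3500 of 21243 had an unadjusted p under 0.05. The median log2 difference of the members was -0.14, against -0.02 over all features. Txnip came nearest to the threshold, and was the member that passed once the pairing of cultures or the slide entered the fit. The largest time effect was in Srxn1, which was at least 3.62-fold lower at 26 h than at 9 h, a lower bound because 2 of the untreated 9 h spots were saturated.

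**Figure D1:**
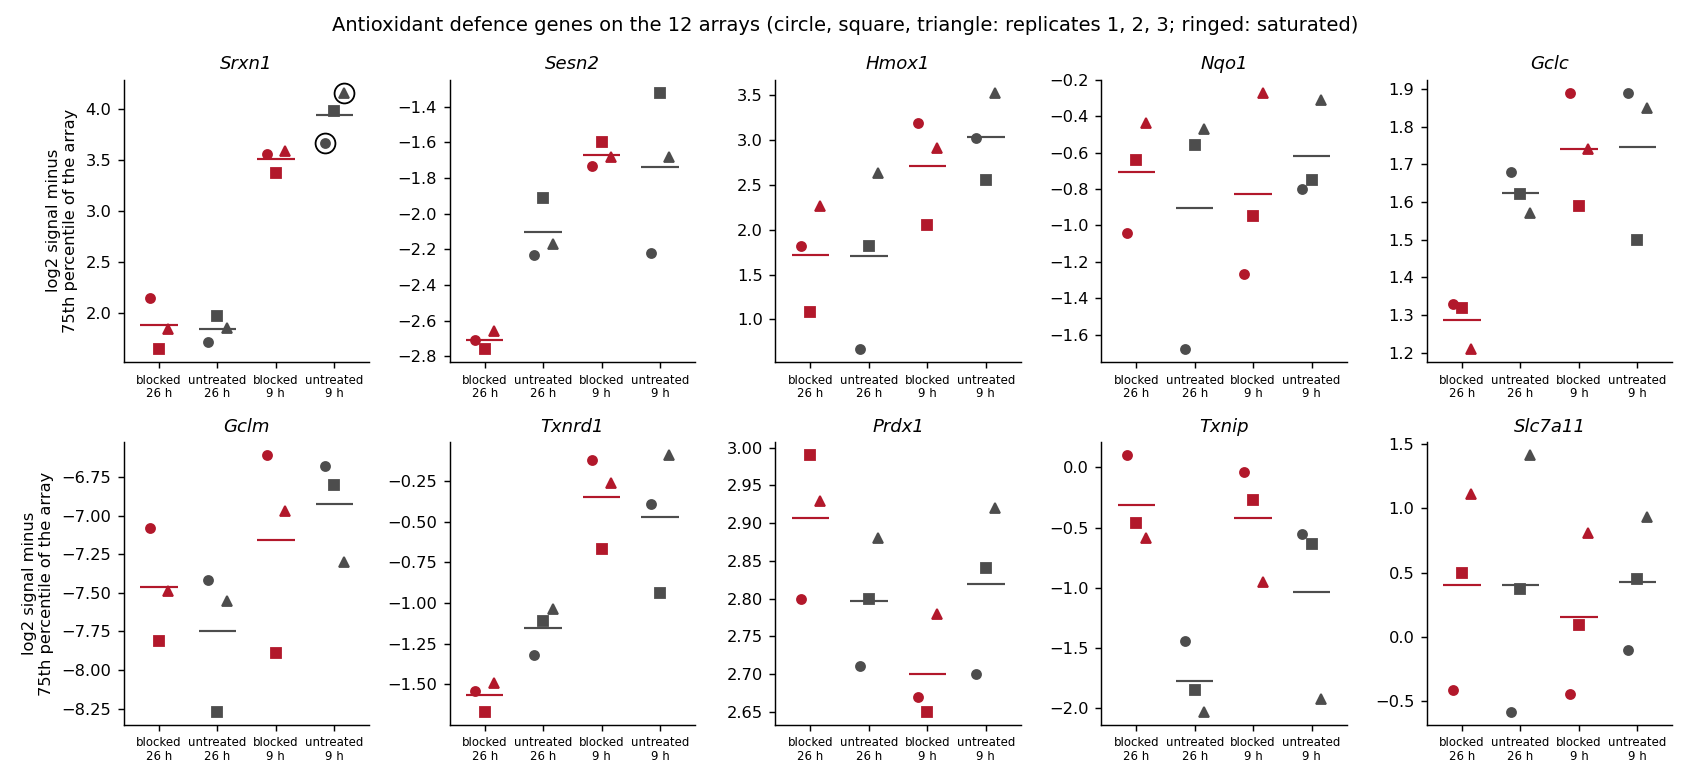
Level of each member (log2 signal relative to the array's 75th percentile) on every array, with groups along the horizontal axis, group means as bars and replicate numbers as symbols. Srxn1 lies between 1.65 and 2.15 on the 26 h arrays and between 3.37 and 4.16 on the 9 h arrays, and Txnip on blocked 26 h arrays lies above all untreated 26 h arrays.

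Txnip, the inhibitor of thioredoxin that also limits glucose uptake, was the member higher in blocked cultures. Its level was 0.10, -0.46 and -0.59 in blocked cultures at 26 h, against -1.44, -1.85 and -2.03 in untreated cultures at 26 h. In the 9 h cultures it was -0.04, -0.27 and -0.95 in blocked cultures, against -0.55, -0.64 and -1.92 in untreated cultures. The groups did not overlap at 26 h and overlapped at 9 h, and the blocked culture was the higher one in 6 of 6 same-numbered pairs.

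At 26 h Txnip rose by 1.46 log2 (SE 0.37, 2.75-fold, adjusted p = 0.0264 by limma), the single member called at that time, where 6.88% of all features were called higher and 9.48% lower. At 9 h the difference was 0.62 (SE 0.37, adjusted p = 0.289), and it was 0.18 without untreated 9 h replicate 3. No member was called (1 had an unadjusted p under 0.05), where 11.4% of all features were higher and 9.64% lower. Of all 21243 features, 7158 had an unadjusted p under 0.05 at 9 h. The average of both times was 1.04 (95% interval 0.45 to 1.63, adjusted p = 0.0564), and it passed on leaving out untreated 9 h replicate 1, blocked 9 h replicate 3 or replicate number 3 (adjusted p = 0.0462 to 0.0469). With the replicate number as a block, Txnip passed in all 3 contrasts, with adjusted p = 0.00249 for the average, 0.00166 at 26 h and 0.041 at 9 h. In that fit 6.18%, 13.3% and 18.4% of all features were called higher in the average, at 26 h and at 9 h. With the slide as a fixed block the average passed as well (adjusted p = 0.0117, with 5.21% of features higher). Blocked minus untreated cultures within a scan day gave 0.72 on day 1 (26 h blocked, 9 h untreated) and 1.36 on day 2 (9 h blocked, 26 h untreated).

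The 26 h call of Txnip depended on single arrays. It was lost on leaving out blocked 26 h replicate 1 or 2 or untreated 26 h replicate 2 or 3, with an adjusted p of up to 0.0969. It was also lost without replicate number 1 or 2 in all groups, with an adjusted p of up to 0.305, while the log2 difference stayed between 1.25 and 1.62 over all arrays and numbers left out. The order of the group means was blocked 26 h (-0.32), blocked 9 h (-0.42), untreated 9 h (-1.04) and untreated 26 h (-1.77), and the first 2 of these differed by 0.10 log2, less than the SD within either group. Replicate 1 was the highest and replicate 3 the lowest array in each of the 4 groups, with mean deviations from the group mean of 0.40 and -0.49. The difference between the 26 h and 9 h effects was 0.84 log2 (adjusted p = 0.268 by limma, 0.0405 with the replicate number as a block and 0.0366 without untreated 9 h replicate 3), and cannot be told apart from scan day.

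**Figure D2:**
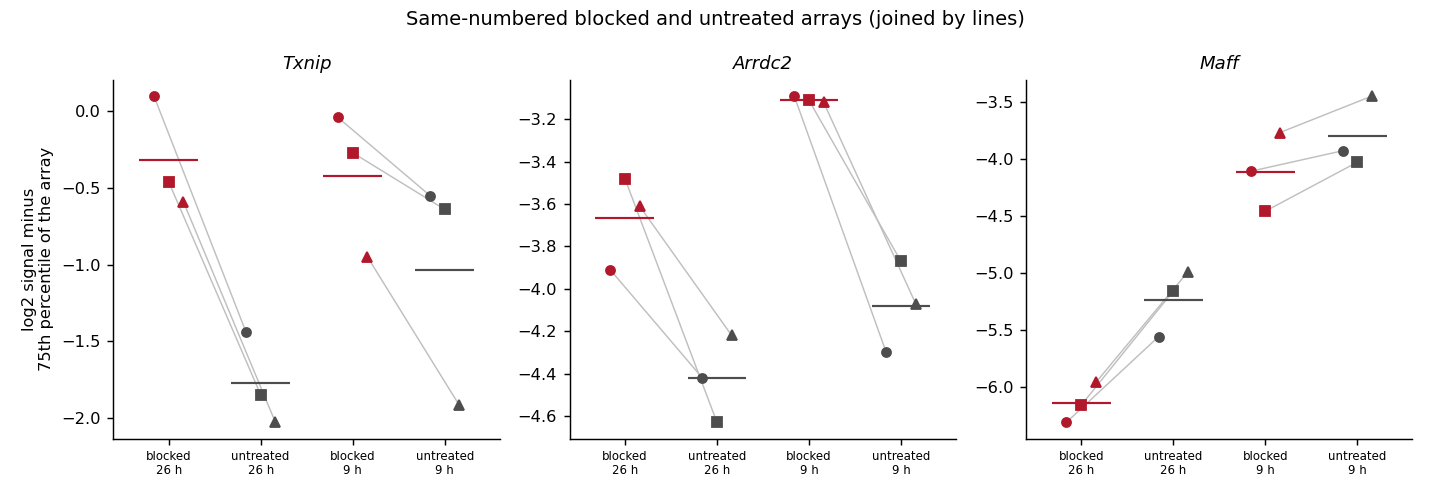
Levels of Txnip, its relative Arrdc2 and the NRF2 partner Maff (log2 signal relative to the array's 75th percentile) by group, with lines joining same-numbered blocked and untreated arrays of a time. Txnip and Arrdc2 are higher on the blocked array of all 6 pairs, and Maff is lower at 26 h than at 9 h on every array.

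Arrdc2, an alpha-arrestin of the same protein family as Txnip, was called in the average and at both times. Its level was -3.91, -3.48 and -3.61 in blocked cultures at 26 h, against -4.42, -4.63 and -4.22 in untreated cultures at 26 h. The 9 h levels were -3.09, -3.11 and -3.12 in blocked cultures, against -4.30, -3.87 and -4.07 in untreated cultures. The groups did not overlap at either time. Its averaged blockade effect was 0.86 log2 (SE 0.11, adjusted p = 0.0015 by limma).

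Srxn1, the sulfiredoxin, separated completely by time. Its level was 2.15, 1.65 and 1.85 in blocked and 1.72, 1.97 and 1.86 in untreated cultures at 26 h. It was 3.56, 3.37 and 3.59 in blocked and 3.67, 3.98 and 4.16 in untreated cultures at 9 h. The 26 h arrays were lower than every 9 h array, in both treatments. Averaged over treatments Srxn1 fell by at least 1.86 log2 at 26 h relative to 9 h (SE 0.11, adjusted p = 3.33e-05 by limma), and the call held in every alternative and with each array left out. Within day 1 (blocked 26 h minus untreated 9 h) the difference was -2.06, and within day 2 (untreated 26 h minus blocked 9 h) it was -1.66. The spot was saturated on 2 of 3 untreated 9 h arrays (replicates 1 and 3), so their true level is at least the value given, and every difference of Srxn1 from untreated 9 h cultures is a lower bound in size whose SE and p rest on capped values.

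The 9 h level of Srxn1 was at least 0.43 log2 lower in blocked than in untreated cultures without overlap of the groups, but the adjusted p was 0.0816 (0.0659 with the replicate number as a block). It passed with normexp background correction (adjusted p = 0.0335) with quantile normalisation (adjusted p = 0.0277), and without untreated 9 h replicate 1 (adjusted p = 0.0339) or replicate number 1 (adjusted p = 0.0456). At 26 h the blocked and untreated cultures overlapped, with a difference of 0.03 log2 (95% interval -0.32 to 0.38). In order of level, the group means were untreated 9 h (3.94), blocked 9 h (3.51), blocked 26 h (1.88) and untreated 26 h (1.85), and the last pair differed by less than their spread.

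Txnrd1, the cytosolic thioredoxin reductase, was also lower at 26 h than at 9 h. It was -1.54, -1.67 and -1.49 in blocked and -1.32, -1.11 and -1.04 in untreated cultures at 26 h. The 9 h levels were -0.12, -0.67 and -0.26 in blocked and -0.39, -0.94 and -0.09 in untreated cultures. The 26 h and 9 h arrays did not overlap. Txnrd1 fell by 0.95 log2 over time (SE 0.15, adjusted p = 0.00318 by limma), with -1.10 within day 1 and -0.81 within day 2. A second probe of the gene gave -0.95 as well (adjusted p = 0.0128). On that probe the 26 h and 9 h arrays overlapped, with blocked 9 h replicate 2 at -3.58 and untreated 26 h replicate 2 at -3.48. The call was lost without replicate number 1 or 3 in all groups (adjusted p of up to 0.0734). The blocked 26 h arrays were all below the untreated 26 h ones, but the difference of -0.42 did not pass (adjusted p = 0.2, and 0.0829 with the replicate block), and the second probe gave -0.16.

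Sesn2, a sestrin that restrains mTORC1 signalling and takes part in the antioxidant response, was -2.71, -2.76 and -2.66 in blocked cultures at 26 h, against -2.23, -1.91 and -2.17 in untreated cultures at 26 h. It was -1.73, -1.60 and -1.68 in blocked cultures at 9 h, against -2.22, -1.32 and -1.68 in untreated cultures at 9 h. Blocked 26 h cultures were the lowest group and overlapped with none of the others. Averaged over treatments Sesn2 fell by 0.70 log2 at 26 h relative to 9 h (SE 0.14, adjusted p = 0.00884 by limma), and that call was lost without replicate number 2 or 3 in all groups (adjusted p of up to 0.147). Within day 1 the difference was -0.97 and within day 2 it was -0.43. Across scan days, blocked cultures alone differed by -1.04 (adjusted p = 0.0041 by limma). Untreated cultures alone differed by -0.37 (adjusted p = 0.217), with overlap of the 26 h and 9 h groups.

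The blockade effect on Sesn2 at 26 h was -0.61 log2 (SE 0.19, adjusted p = 0.0555 by limma). With the replicate number as a block it passed (adjusted p = 0.0207), as it did with normexp correction (adjusted p = 0.0442) and on leaving out untreated 9 h replicate 1 or 2 (adjusted p down to 0.011). The 9 h difference was 0.07 (95% interval -0.36 to 0.49). The difference between the 2 effects was -0.67 (adjusted p = 0.0871, 0.0392 with the replicate block and 0.0181 without untreated 9 h replicate 2), and cannot be told apart from scan day. None of the 10 members was called in that contrast (1 had an unadjusted p under 0.05), where 28.6% of all features were. An unadjusted p under 0.05 was reached there by 8708 of 21243 features. The replicate block called Sesn2 and Txnip, where 44.8% of all features were.

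Prdx1, the cytosolic peroxiredoxin, stayed within a narrow band, between 2.80 and 2.99 in blocked and 2.71 and 2.88 in untreated cultures at 26 h. At 9 h it lay between 2.65 and 2.78 in blocked and 2.70 and 2.92 in untreated cultures. Its averaged blockade effect was 0.00 log2 with a 95% interval of -0.16 to 0.15, and its time effect was 0.09 with an interval of -0.06 to 0.24. Its SD within groups (0.09) was the smallest of the members, against a median of 0.21 over all features.

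Glutathione synthesis had 3 members. Gclc, the catalytic subunit of glutamate-cysteine ligase, was 1.33, 1.32 and 1.21 in blocked and 1.68, 1.62 and 1.57 in untreated cultures at 26 h. Earlier, at 9 h, levels were 1.89, 1.59 and 1.74 in blocked and 1.89, 1.50 and 1.85 in untreated cultures. As with Sesn2, blocked cultures at 26 h lay below all other groups. The 26 h blockade effect was -0.34 (SE 0.12, adjusted p = 0.0889 by limma), and it passed with the replicate number as a block (adjusted p = 0.0326) and without untreated 9 h replicate 2 (adjusted p = 0.0492). Gclc and Sesn2 were the members called lower at 26 h in that fit, where 18.4% of all features were.

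Gclm, the modifier subunit of that ligase, was a dim probe, well above background on 10 of 12 arrays (not on replicate 2 of blocked 26 h and of untreated 26 h). It ranged from -7.81 to -7.08 in blocked and -8.27 to -7.42 in untreated cultures at 26 h, and from -7.89 to -6.61 in blocked and -7.30 to -6.68 in untreated cultures at 9 h. The groups overlapped between treatments, and its averaged blockade effect was 0.03 (95% interval -0.52 to 0.57).

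Slc7a11, the cystine and glutamate exchanger, differed more between cultures than between groups. It was -0.41, 0.50 and 1.11 in blocked and -0.58, 0.37 and 1.41 in untreated cultures at 26 h, for replicates 1, 2 and 3. At 9 h it was -0.44, 0.09 and 0.81 in blocked and -0.10, 0.45 and 0.93 in untreated cultures. Replicate 1 was the lowest and replicate 3 the highest array in all 4 groups, also on a second probe. The averaged blockade effect was -0.14 with a 95% interval of -0.99 to 0.72. Its SD within groups (0.75) was above that of 96% of all features.

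Hmox1, heme oxygenase, breaks down heme and is a classical stress gene. It was 1.82, 1.08 and 2.27 in blocked and 0.67, 1.82 and 2.63 in untreated cultures at 26 h. The 9 h levels were 3.19, 2.05 and 2.91 in blocked and 3.02, 2.55 and 3.53 in untreated cultures. Within each treatment the mean was lower at 26 h than at 9 h, and the groups overlapped. The time effect was -1.16 log2 (SE 0.36, adjusted p = 0.06 by limma), and did not pass. It passed with normexp correction (adjusted p = 0.0467), in the deposited matrix (adjusted p = 0.0487) and without untreated 26 h replicate 3 (adjusted p = 0.0307). The time effect also passed with the replicate number as a block (adjusted p = 0.0165) and with the slide as a random block (adjusted p = 0.0116). With quantile normalisation it did not pass (adjusted p = 0.052). Within day 1 it was -1.31, and within day 2 it was -1.01.

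Nqo1, a quinone reductase, did not pass in any contrast. It lay between -1.04 and -0.44 in blocked and -1.68 and -0.47 in untreated cultures at 26 h, and between -1.27 and -0.27 in blocked and -0.80 and -0.31 in untreated cultures at 9 h. Its averaged blockade effect was -0.01 with a 95% interval of -0.55 to 0.54.

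In the averaged time contrast 3 of 10 members fell (Srxn1, Txnrd1 and Sesn2) and none rose, against 7.78% of all features lower and 4.93% higher. The median of the members was -0.44, against -0.02 over all features. With the slide as a fixed block 6 of 10 members were lower, where 14.1% of all features were. The 3 added were Hmox1 (adjusted p = 0.0377), Gclc (adjusted p = 0.0413, 0.0189 without untreated 9 h replicate 2, time effect -0.29) and Gclm (adjusted p = 0.0198, time effect -0.56). Gclc did not pass by limma with all arrays and no block (adjusted p = 0.0536) or in the deposited matrix (adjusted p = 0.122). It passed with normexp correction (adjusted p = 0.0339), quantile normalisation (adjusted p = 0.0285) and the replicate block (adjusted p = 0.0173). Gclm's time effect was -0.15 with normexp correction (adjusted p = 0.54) and -0.33 with quantile normalisation (adjusted p = 0.653), and its probe was not above background on 2 of the 26 h arrays. The Gclm probe thus passed the filter only through the 9 h groups, where its level was higher. Its count among the lower members follows in part from that and is no separate support. Taken apart, blocked cultures had 4 of 10 members lower at 26 h (Srxn1, Txnrd1, Sesn2 and Gclc; 14.5% of all features), and untreated cultures had 2 of 10 (Srxn1 and Txnrd1; 9.84% of all features). These 2 comparisons lie between arrays of different days. On its second probe Txnrd1 differed by -0.80 in blocked cultures, which did not pass (adjusted p = 0.0624 by limma). In untreated cultures that probe differed by -1.10 (adjusted p = 0.0206).

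**Figure D3:**
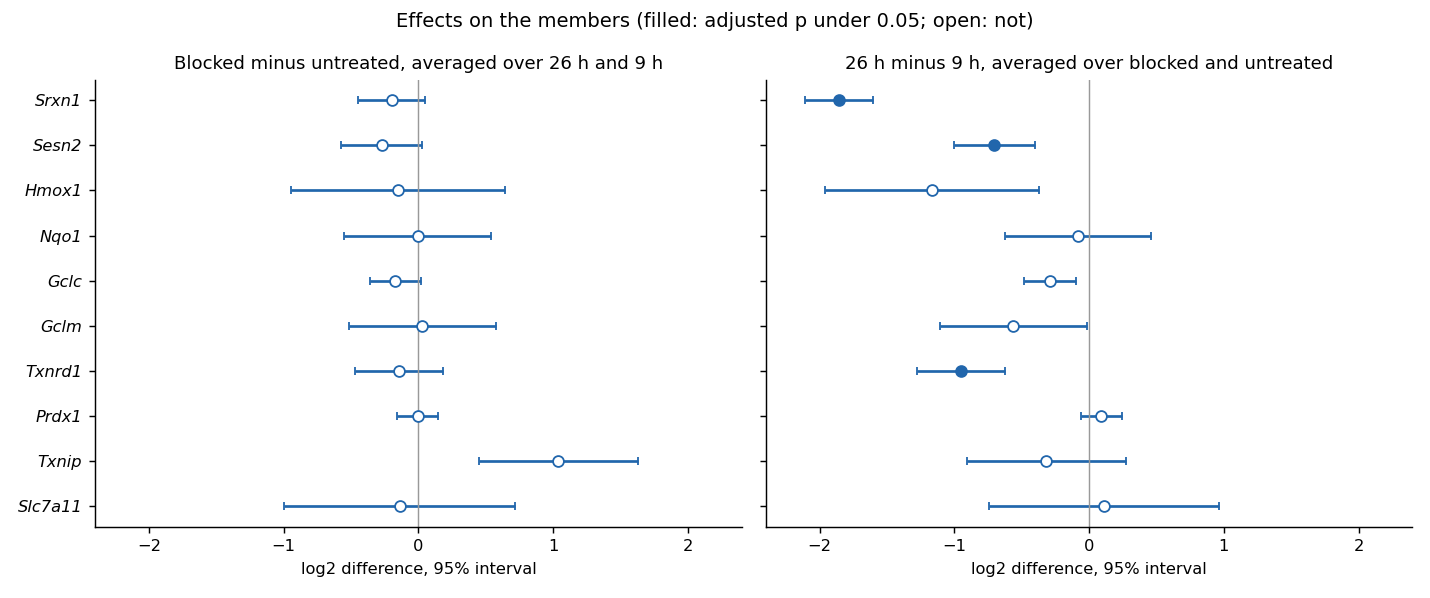
Log2 differences of the 10 members with 95% intervals, blocked minus untreated on the left and 26 h minus 9 h on the right, each averaged over the other factor. Txnip lies to the right of 0 on the left panel without passing the threshold (1.04, adjusted p = 0.0564), and the 3 filled points on the right panel are Srxn1, Sesn2 and Txnrd1.

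The wider pathway was read from 6 lists of 124 further genes, of which 111 were measured. Averaged over times, blockade left most of them uncalled: 2 were higher and 3 lower, against 2.23% and 2.22% of all features. Besides Arrdc2, the higher one was Glrx, a glutaredoxin that uses glutathione to reduce mixed disulfides (0.30 log2, SE 0.07, adjusted p = 0.0336 by limma). The lower ones were Fos, the activity-induced AP-1 subunit (-1.75, SE 0.19, adjusted p = 0.000601), Gsto2, an omega-class glutathione transferase (-0.64, SE 0.07, adjusted p = 0.000745), and Bach2, a repressor that competes with NRF2 for its sites (-0.44, SE 0.07, adjusted p = 0.00495).

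Fos was -2.21, -2.19 and -1.35 in blocked cultures at 26 h, against 0.36, 0.46 and -0.06 in untreated ones. In the 9 h cultures it was -1.53, -1.44 and -0.88 in blocked cultures, against -0.15, -0.06 and 0.33 in untreated ones. Fos was thus lower with blockade at both times without overlap. Gsto2 passed at 26 h (-1.11) and not at 9 h (-0.18), and Bach2 passed at 9 h (-0.88) and not at 26 h (0.01). The difference between their effects at the 2 times cannot be told apart from scan day.

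Of the other NRF2 regulators, Nfe2l2, which encodes NRF2, differed by -0.08 in the average (adjusted p = 0.869), Keap1, its inhibitor, by 0.14 (adjusted p = 0.608), and Bach1, a heme-sensing repressor, by -0.31 (adjusted p = 0.501). None of these 3 passed. By list, against the same shares of all features (2.23% higher and 2.22% lower), the averaged blockade contrast called 1 of 11 NRF2 regulators, 1 of 10 activity-linked upstream factors, 2 of 39 glutathione genes, 1 of 20 thioredoxin and peroxiredoxin genes, none of 5 superoxide dismutase and catalase genes (0 with an unadjusted p under 0.05) and none of 26 further NRF2 targets (2 with an unadjusted p under 0.05). Of all 21243 features, 3500 had an unadjusted p under 0.05 in that contrast.

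Over time, 9 of the 111 genes were higher and 6 lower at 26 h than at 9 h, against 4.93% of all features higher and 7.78% lower. Of the lower ones, chosen after their values were seen, Maff, a small Maf protein that pairs with NRF2, fell by 1.73 log2 (SE 0.16, adjusted p = 0.000216 by limma). Maff was -6.31, -6.16 and -5.96 in blocked and -5.56, -5.16 and -4.99 in untreated cultures at 26 h, and -4.11, -4.46 and -3.77 in blocked and -3.93, -4.03 and -3.45 in untreated cultures at 9 h. With blockade at 26 h Maff fell by 0.91 log2 (adjusted p = 0.0211 by limma) without overlap of the groups, and its blockade effect averaged over both times was -0.61 (adjusted p = 0.0564). Gpx2, a glutathione peroxidase, fell by 1.65 over time (adjusted p = 0.006), and the NRF2 targets Cbr3 fell by 0.43 and Ugdh fell by 0.42. Among the higher ones, likewise chosen after its values were seen, Idh1, an enzyme that makes NADPH, rose by 0.42 (adjusted p = 0.0299). Nfe2l2 differed over time by 0.09 (adjusted p = 0.807).

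The named genes whose levels ran most like those of 3 members over the 12 arrays were found among 12329 by Pearson correlation, given as a description, since the arrays share their groups, days and cultures. For Srxn1 they were Tnfrsf12a (0.98), which encodes the TWEAK receptor, Nfx1 (0.97) and Hbegf (0.97), a growth factor of the EGF family. Tnfrsf12a also fell by 1.85 log2 over time, and Hbegf fell by 2.26. For Sesn2 they were Marchf5 (0.95), Asb1 (0.94) and Csnk2a2 (0.93). For Txnip they were Cbx7 (0.94), Crbn (0.93) and Tsc22d3 (0.93), a glucocorticoid-induced leucine zipper gene, with blockade effects at 26 h of 0.68 (adjusted p = 0.0217), 0.69 (adjusted p = 0.018) and 0.70 log2 (adjusted p = 0.0612, not passing). In the averaged blockade contrast none of these 3 passed (adjusted p = 0.118, 0.0623 and 0.175). All genes of this paragraph were picked for likeness to a member on these same arrays. Their effects and adjusted p values therefore follow in part from that choice and are no separate support.

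Several members differed between same-group cultures by replicate number, as did markers of other cells. Slc7a11 had mean deviations from the group mean of -0.73 in replicate 1 and 0.72 in replicate 3, and Nqo1 of -0.43 and 0.39, with replicate 3 the highest in each of the 4 groups for both. Txnip ran the other way. For Gclc and Gclm as well, replicate 1 was the highest in each of the 4 groups (mean deviations of 0.10 and 0.38). Of 13 marker genes of meningeal, fibroblast and vascular cells 12 were measured (Cldn5 was not above background), and 10 of these were above their group means in replicate 3. Their median deviation was 1.08 in replicate 3 and -1.17 in replicate 1. The summed level of that list ranged from 2.63 to 33.13 on blocked 26 h, from 2.97 to 28.07 on untreated 26 h, from 1.74 to 33.79 on blocked 9 h and from 3.23 to 34.22 on untreated 9 h arrays.

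The medians of the 10 astrocyte markers were 0.19 in replicate 3 and -0.23 in replicate 1, and their summed level ranged from 61.19 to 75.51 on blocked 26 h, 65.61 to 92.64 on untreated 26 h, 57.44 to 74.42 on blocked 9 h and 58.81 to 81.33 on untreated 9 h arrays. Over treatment and over time these ranges overlapped, and none of the 12 meningeal list genes or the 10 astrocyte markers was called in the averaged blockade or the averaged time contrast by limma. At an unadjusted p under 0.05 there were 3 and 2 of them in the blockade contrast, and 0 and 1 in the time contrast. Of all 21243 features, 3500 were under it in the blockade and 5648 in the time contrast. Of 10 microglial markers 9 were measured (Ptprc was not above background). At 26 h their sums were 1.18 to 1.46 on blocked and 1.37 to 1.81 on untreated arrays. The 9 h sums were 1.26 to 1.53 on blocked and 1.01 to 1.26 on untreated arrays. Summed neuronal markers did not overlap between treatments at 26 h (38.32 to 39.62 blocked, 42.49 to 48.52 untreated) and overlapped at 9 h. Averaged as log2 deviations, the same 8 markers did overlap at 26 h (-0.041 to 0.052 blocked, -0.048 to 0.186 untreated). None of the 8 was called at 26 h, where 6.88% of all features were higher and 9.48% lower. An unadjusted p under 0.05 was reached there by 2 of them and by 6848 of 21243 features. All 10 markers of the oligodendrocyte lineage were measured, and 1 of them, Cspg4, was called lower with blockade in the average. At single times, compared across scan days, Olig1 and Sox10 were called lower with blockade at 26 h, where 1 of Dcn and Pecam1 was called in each direction. At 9 h Cspg4 and Aqp4 were called lower with blockade and Rbfox3, Snap25 and Cx3cr1 higher. Over time, Map2, Cspg4 and Cx3cr1 were called higher at 26 h than at 9 h. Of all features, 6.88% were called higher and 9.48% lower with blockade at 26 h, and 11.4% and 9.64% at 9 h. Over time 4.93% of all features were higher and 7.78% lower. The part of these marker differences in the members' effects was not tested. The part of these cells in the members' differences between cultures was not tested.

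**Figure D4:**
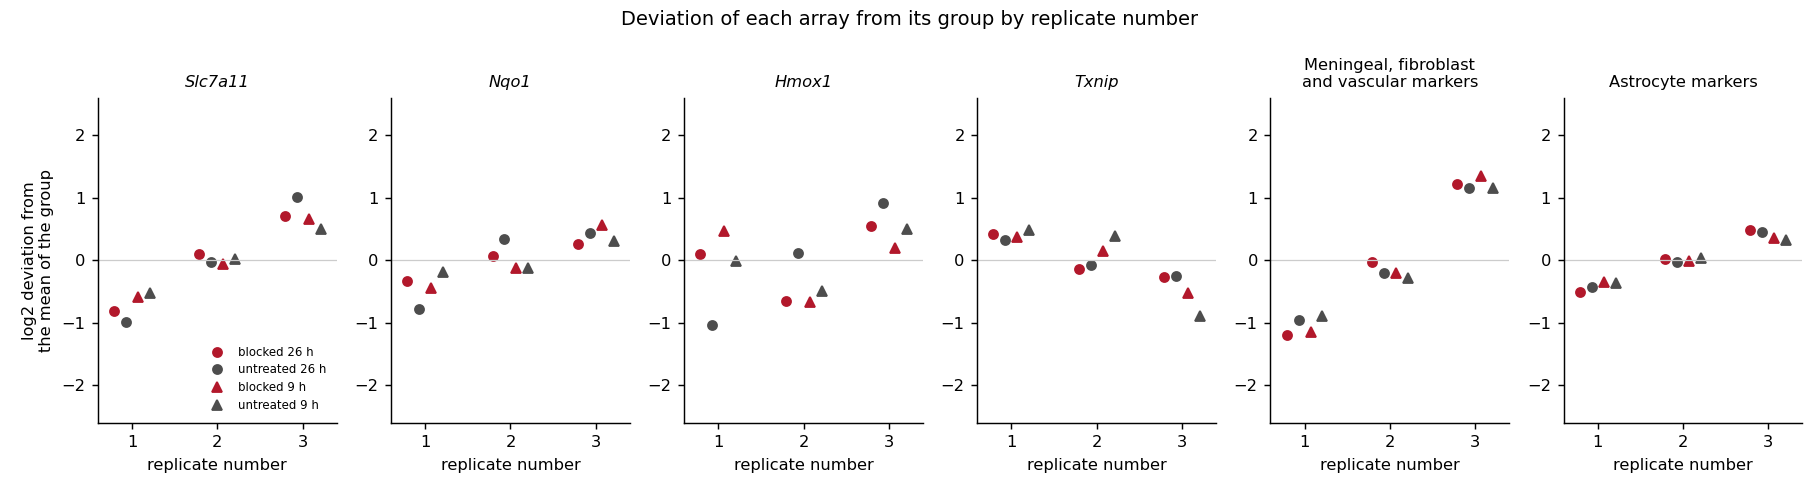
Deviation of each array from the mean of its group (log2) by replicate number, for 4 members and for the mean of the meningeal, fibroblast and vascular list and of the astrocyte list. Slc7a11 and Nqo1 are highest in replicate 3 in all 4 groups, as are both marker lists, and Txnip is lowest there.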

How the data were processed

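RNA (200 ng) from each of the 12 cultures was labelled with Cy3 for a one-colour Agilent array of its own, per the labels. The authors deposited scanner output of Feature Extraction 10.5.1.1, whose processed signal is a background-subtracted intensity, per the file headers, with no scaling between arrays. They also deposited a matrix of log2 values, which equals log2 of that intensity minus 1 constant per array. The rule for the constants is not given in the sources used here, and the column medians run from 7.57 to 7.75.

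Control spots and 3751 outlier spot values were left out, spots of a probe were averaged, and log2 intensity minus the array's 75th percentile was used. A probe was kept when any group had it well above background on each of its 3 arrays (24027 of 30367). Names came through RefSeq transcripts, which matched 17996 probes. The header build (rn4) differs from GRCr8 of the promoter windows, so no array coordinates were used. The number of arrays limits the precision.

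All 12 arrays entered 1 model with a mean per group in limma 3.58.1 under R 4.3.3, with two-sided tests and Benjamini-Hochberg adjustment over 21243 features at a threshold of 0.05. The fit was tested on simulated data. Replicate numbers come from the labels. After removal of group means, same-numbered blocked and untreated arrays correlated at 0.505, 0.178 and 0.657 at 26 h and at 0.496, 0.177 and 0.538 at 9 h, so the numbers were taken to pair cultures for the blockade contrasts. Alternatives were blocks for the replicate number and the slide, normexp (offset 50), quantile and median scaling, the deposited matrix, no filter on dim probes, the mean of a gene's probes, outlier spots kept, and arrays left out. Named genes were all members, list genes past the threshold in the averaged blockade contrast (at most 5 per list), Nfe2l2, Keap1 and Bach1, and the 3 genes most like Srxn1, Sesn2 and Txnip. The members and lists were chosen with earlier results of these data known.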

Additional observations from a re-analysis of the deposited data

How the results depend on the processing

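Srxn1, Txnrd1 and Sesn2 stayed lower at 26 h under every alternative that kept all arrays, and so did the 26 h call of Txnip. Over all alternatives, 1090 values of single members kept direction and side of the threshold, 39 newly passed it, 10 no longer did and 81 changed sign, all of them of members that did not pass. The cause of these changes was not tested. With the replicate number as a block, 2797 features and 1 member (Txnip) passed in the averaged blockade contrast, 6739 and 3 at 26 h, 7624 and 1 at 9 h, 5688 and 6 over time, and 9507 and 2 in the difference between the effects at the 2 times. The fits without the block gave 944, 3475, 4478, 2700 and 6075 features. Over time, same-numbered arrays correlated at 0.478, 0.254 and 0.636 in blocked and at 0.445, -0.041 and 0.552 in untreated cultures. Except for untreated replicate 2, these values lay in the range of the blockade pairs (0.177 to 0.657). The numbers may thus pair cultures over time as well, and the time counts with the block are those given above. The slide as a random block gave 2992 features and 1 member for the average, 6033 and 6 over time and 3529 features for the difference, and as a fixed block 2302 and 1, and 5190 and 6. Each of these counts of 6 members over time includes Gclm, whose probe passed the filter only through the 9 h groups. Normexp correction called 1 member in the average and at 9 h, 2 at 26 h and 5 over time, and quantile normalisation 1 at 9 h. Sign changes in the averaged contrast were Nqo1 at 0.0381 (deposited matrix) and 0.0066 (median scaling), Gclm at -0.0901 (normexp), and Prdx1 at 0.0404 (deposited matrix), 0.0040 (quantile) and 0.0089 (median scaling). At 26 h they were Hmox1 at -0.0131 (quantile), Gclm at -0.1530 (normexp) and Slc7a11 at 0.0353 (deposited matrix) and 0.0498 (median scaling). At 9 h they were Gclc at 0.0476 (deposited matrix) and 0.0488 (quantile), Gclm at 0.0777 (quantile) and Txnrd1 at -0.1700 (mean of both probes), and Gclm was -0.1258 (normexp) for the difference. Leaving out single arrays or replicate numbers gave 36 to 981 features and 0 to 2 members in the average, 20 to 4476 and 0 to 3 at 26 h, 0 to 4646 and 0 to 1 at 9 h, 164 to 2575 and 1 to 4 over time, and 3 to 6185 and 0 to 1 for the difference. The lowest feature counts came from leaving out replicate number 2, which leaves 2 arrays per group. At 9 h limma then called 0 features, with 3994 at an unadjusted p under 0.05. The same left-out ranges that crossed 0 were, in the average, -0.5539 to 0.0831 for Hmox1, -0.2009 to 0.1029 for Nqo1, -0.1103 to 0.2117 for Gclm, -0.0345 to 0.0221 for Prdx1 and -0.3844 to 0.1132 for Slc7a11. At 26 h they were -0.1662 to 0.2076 for Srxn1, -0.5466 to 0.4799 for Hmox1, -0.1904 to 0.4173 for Nqo1 and -0.4928 to 0.5025 for Slc7a11. At 9 h they were -0.1764 to 0.2762 for Sesn2, -0.5642 to 0.0120 for Hmox1, -0.4910 to 0.0061 for Nqo1, -0.1268 to 0.0710 for Gclc, -0.5124 to 0.1971 for Gclm, -0.1057 to 0.3179 for Txnrd1 and -0.6053 to 0.0210 for Slc7a11. Over time they were -0.2463 to 0.1137 for Nqo1 and -0.1400 to 0.3576 for Slc7a11, and for the difference -0.1799 to 0.7999 for Hmox1 and -0.2168 to 0.7785 for Slc7a11.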
